A study of Mus musculus with 115 samples.

Results

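Lymphatic vessels drain fluid, fat and immune cells from tissue, and their lining is marked by a small set of genes. The 6 described here are Prox1, Flt4, Mmrn1, Lyve1, Pdpn and Reln, taken by name from 18772 genes with a probe set of their own on the array. Each was measured by 1 probe set that carries 1 gene symbol.

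RNA was taken from the mammary fat pads of 115 females, 8 weeks old and given no treatment, and each mouse had its own array. All mice came from 1 backcross, in which the offspring of FVB/N and Spret/Ei mice were bred to FVB/N again. No control strain or treatment arm was analysed here. The labels divide the mice into lymph cluster 3 (10 mice), lymph cluster 2 (61 mice) and lymph cluster 1 (44 mice), without saying how the clusters were made, and name 2 array plates, with 22 mice on plate 2 and 93 on plate 1. The series title names Hipk2, a nuclear serine/threonine kinase, and white fat, so the level of Hipk2 is used below as a second measure that differs between mice. Values are log2 signals, and a value of 1 probe set is compared only with that of the same probe set in other mice.

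Lymphatic endothelial cells arise from vein endothelium when the homeobox transcription factor Prox1 is switched on, and they stay lymphatic only while Prox1 is made. They carry Flt4, also called VEGFR3, the receptor through which the growth factors Vegfc and Vegfd drive lymphatic growth. Mammary fat also holds blood vessels, adipocytes, milk duct epithelium, macrophages and, in the mouse inguinal pad, a lymph node, and several of the 6 genes are known to be made by some of those cells too. In RNA from a whole fat pad, fewer cells of a type and less RNA per cell cannot be told apart.

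Prox1, Flt4 and Mmrn1 varied together from mouse to mouse, and their promoters are shown for that reason. Of the 6 genes, 5 had a promoter in the RefSeq set for GRCm38.p6, which holds 250 bases before and 50 bases after each start. Prox1 had 2 starts, and the first is given. The windows lie at chr1:190170778-190171077 on the minus strand (Prox1), chr11:49609429-49609728 on the plus strand (Flt4) and chr6:60944067-60944366 on the plus strand (Mmrn1). Capitals mark a match to AACAAT, a core recognised by SOX factors such as Sox18, which switches on Prox1 in the mouse embryo.
Prox1: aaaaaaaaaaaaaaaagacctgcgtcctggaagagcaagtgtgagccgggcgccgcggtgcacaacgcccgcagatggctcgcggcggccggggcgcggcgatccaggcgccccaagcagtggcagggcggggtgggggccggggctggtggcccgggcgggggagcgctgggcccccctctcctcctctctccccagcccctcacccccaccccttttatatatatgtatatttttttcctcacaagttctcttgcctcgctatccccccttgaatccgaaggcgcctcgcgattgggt
Flt4: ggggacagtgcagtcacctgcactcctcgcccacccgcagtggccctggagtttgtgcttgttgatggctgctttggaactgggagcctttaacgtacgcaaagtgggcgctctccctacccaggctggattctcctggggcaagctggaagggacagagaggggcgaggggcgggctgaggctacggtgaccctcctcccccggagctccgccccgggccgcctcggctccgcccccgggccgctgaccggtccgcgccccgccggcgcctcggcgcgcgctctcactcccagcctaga
Mmrn1: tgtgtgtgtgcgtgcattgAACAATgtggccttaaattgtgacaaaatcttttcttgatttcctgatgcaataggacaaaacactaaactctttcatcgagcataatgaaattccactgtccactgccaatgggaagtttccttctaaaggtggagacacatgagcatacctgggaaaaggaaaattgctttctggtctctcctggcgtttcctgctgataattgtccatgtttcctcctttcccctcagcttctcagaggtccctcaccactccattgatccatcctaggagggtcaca

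On both strands, AACAAT was searched together with the ETS core CGGAAG and the GATA core AGATAA, which do not overlap each other. Mmrn1 held 1 SOX match, starting at position -231 from its start, and Reln held 1 ETS match on the opposite strand, at position -186. The 2 Prox1 windows and those of Flt4 and Pdpn held none of these letters. Among 32851 mouse promoters of 300 bases, 10.7% held AACAAT, 16.9% held CGGAAG and 11.2% held AGATAA. The windows differ in base composition, with 64.3% G and C in the printed Prox1 window, 70.3% in that of Flt4 and 44.3% in that of Mmrn1.

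All 6 genes varied more between mice than most probe sets did. Lyve1, a hyaluronan receptor of lymphatic capillaries and of some tissue macrophages, ranged over mice from 6.56 through a median of 8.82 to 10.09, an 11.6-fold spread. Its standard deviation of 0.66 was above that of 96.6% of probe sets, whose median was 0.24. Reln, a large secreted glycoprotein by which lymphatic endothelium signals to the muscle cells around collecting vessels in the mouse, ran from 5.17 through 6.17 to 7.95. Mmrn1, a secreted multimeric glycoprotein of platelets and endothelium, ran from 4.24 through 5.36 to 7.17. Both had SDs of 0.57, higher than in 94.8% and 94.6% of probe sets. Prox1 (4.49, 5.37 and 6.68), Flt4 (5.18, 6.42 and 7.45) and Pdpn (6.56, 7.29 and 8.24) spread less, with SDs of 0.40, 0.37 and 0.36. Pdpn encodes podoplanin, a mucin-like membrane protein that binds the platelet receptor Clec1b.

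2 mice of cluster 2, both on plate 1, ranked below 100th of 115 in every one of the 6 genes. Mouse 48 of that cluster was the lowest of all mice in Lyve1 (6.56) and Prox1 (4.49), and ranked 113th in Pdpn, Mmrn1 and Reln. Mouse 57 was the lowest in Mmrn1 (4.24) and ranked 114th in Lyve1. Mouse 57 was also 1 of the 5 arrays least like the others, whose median correlations with the other arrays were at most 0.961, against 0.967 for the next array and a median of 0.979. In marker lists, both mice were near the bottom for macrophages (113th for mouse 48 and 114th for mouse 57) and for fibroblasts and matrix (109th and 113th). Mouse 57 was also last for adipocytes and blood endothelium and 2nd for lymphocytes, where mouse 48 was 23rd, 30th and 85th. The part of these cell types in the low values was not tested. Results were recomputed without those 5 arrays and without these 2 mice. Without the 2 mice, Prox1 fell with the fibroblast and matrix mean (slope -0.34, SE 0.12, limma adjusted p = 0.0351), Flt4 no longer passed with the macrophage mean (0.23, adjusted p = 0.0933) and Prox1 no longer passed with Reln (0.14, adjusted p = 0.0961). In the model with 6 cell type means described below, Pdpn then rose with the fibroblast and matrix mean (0.34, adjusted p = 0.0444; 0.39, adjusted p = 0.018, without the 5 arrays) and no longer passed with the macrophage mean (0.23, adjusted p = 0.0597).

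In the values used here, the levels of the 6 genes were alike in the lymph clusters, as the plot of levels by cluster shows. Cluster means were alike over the whole array too, to a degree given below. The comparison therefore cannot tell whether the clusters differ in these genes. Prox1 ran from 4.71 through 5.22 to 5.94 in cluster 3, from 4.49 through 5.42 to 6.68 in cluster 2, and from 4.72 through 5.29 to 6.54 in cluster 1. Lyve1 ran from 7.83 through 8.66 to 9.43 in cluster 3, from 6.56 through 8.88 to 9.94 in cluster 2, and from 7.08 through 8.78 to 10.09 in cluster 1. The clusters overlapped over nearly their whole ranges. Mean levels of Flt4 were 6.37 ± 0.25 in cluster 3 (SD, n = 10), 6.40 ± 0.39 in cluster 2 (n = 61) and 6.39 ± 0.37 in cluster 1 (n = 44). Those of Mmrn1 were 5.43 ± 0.49, 5.51 ± 0.62 and 5.44 ± 0.51 in the same order. Pdpn averaged 7.34 ± 0.33, 7.37 ± 0.37 and 7.38 ± 0.37, and Reln 6.27 ± 0.48, 6.27 ± 0.56 and 6.28 ± 0.61. No neighbouring pair in any of these orders differed beyond its spread.

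**Figure D1:**
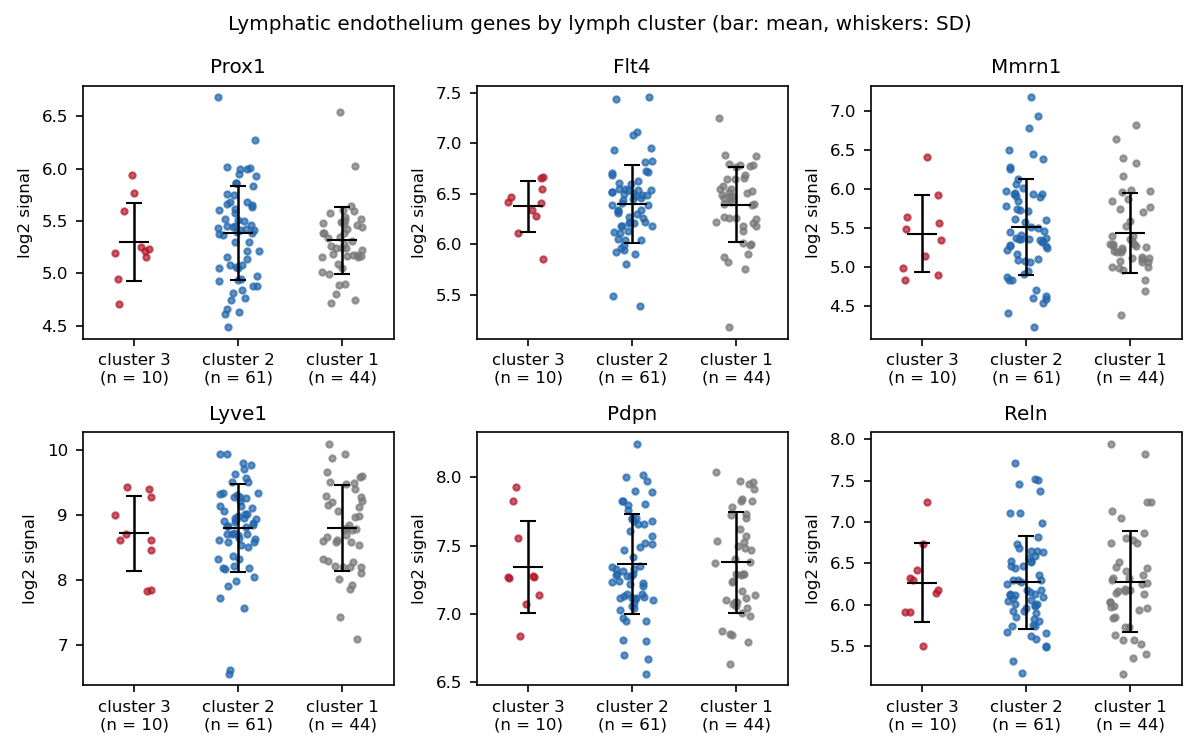
Log2 signal of each gene in each mouse (points) for lymph clusters 3, 2 and 1 (n = 10, 61 and 44); horizontal bars are means and whiskers SDs. The clusters overlap in every gene, and the 2 lowest Lyve1 values lie in cluster 2.

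In a limma model with cluster and plate, fitted over all 28204 probe sets with Benjamini-Hochberg adjustment, none of the 6 genes passed an adjusted p of 0.05. The share of all probe sets that passed was 0% for cluster 3 minus cluster 1, 0% for cluster 3 minus cluster 2 and 0% for cluster 2 minus cluster 1. Unadjusted limma p values were under 0.05 for 0 of the 6 genes, and for 1, 1 and 4 of all probe sets in those comparisons (0.00355%, 0.00355% and 0.0142%). Groups drawn at random would give a share near 0.05. Cluster means in these values were thus more alike than those of random groups, and the test says nothing on whether clusters differ. Whether cluster differences were taken out before deposit was not tested. The largest estimate was -0.08 for Lyve1 in cluster 3 minus cluster 1, with a 95% interval of -0.54 to 0.38. For the same reason that interval does not bound a difference between clusters in the tissue. Array plate called none of the 6 either, against 0.0106% of probe sets, and its largest estimate was 0.13 for Prox1 on plate 2 minus plate 1 (95% interval -0.06 to 0.31).

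Prox1, Flt4 and Mmrn1 rose and fell together over all 115 mice, though Prox1 and Flt4 did so mainly in cluster 2. Prox1 and Mmrn1 had a Pearson r of 0.687 and a Spearman rho of 0.631 over 115 mice (permutation p = 1e-05 for each, the smallest that 100000 permutations can give; adjusted over 15 pairs 3e-05 and 3.75e-05). Flt4 and Mmrn1 had r = 0.582 and rho = 0.515, and Prox1 and Flt4 r = 0.505 and rho = 0.46, with the same permutation p. Leaving out the 2 mice farthest from the median of the first gene gave r of 0.646, 0.592 and 0.452 for these 3 pairs. Within plates, r for Prox1 and Mmrn1 was 0.622 on plate 2 and 0.704 on plate 1, for Flt4 and Mmrn1 0.624 and 0.576, and for Prox1 and Flt4 0.361 and 0.533. Of 18001 named genes ranked by likeness to Mmrn1 after cluster and plate means were taken out, Prox1 was 1st and Flt4 6th. Mmrn1 was 2nd for Prox1 and 8th for Flt4.

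Pdpn and Reln formed a second pair, with r = 0.527 and rho = 0.465 (permutation p = 1e-05 each; adjusted 3e-05 and 3.75e-05), 0.499 without the 2 farthest mice, and 0.518 and 0.53 on plates 2 and 1. The r of Lyve1 was 0.406 with Mmrn1 (rho 0.317, permutation p = 1e-05, adjusted 3e-05) and 0.383 with Pdpn (rho 0.342, permutation p = 2e-05, adjusted 5e-05). The r of Lyve1 with Prox1 was 0.183 (rho 0.0919, permutation p = 0.0493, adjusted 0.0672). Reln also passed with Mmrn1 (r = 0.28, rho 0.325, permutation p = 0.00231, adjusted 0.00495) and with Prox1 (r = 0.246, rho 0.246, permutation p = 0.00805, adjusted 0.0151). On plate 1 alone neither passed, with r of 0.211 for Mmrn1 (permutation, adjusted p = 0.0699) and 0.139 for Prox1 (adjusted p = 0.229). In all, 9 of 15 pairs passed an adjusted p of 0.05. Flt4 and Pdpn had r = -0.14 (rho -0.157, permutation p = 0.135, adjusted 0.156). Without the 2 mice low in all 6 genes this r was -0.216 (permutation, adjusted p = 0.0412), and the slope of Pdpn on Flt4 passed at -0.26 (SE 0.088, limma adjusted p = 0.0307) after quantile normalization and at -0.28 (SE 0.087, adjusted p = 0.0176) with the macrophage mean in the model. Lyve1 and Flt4, a pair among the 9, had r = 0.122 without the 2 mice (permutation, adjusted p = 0.272) and 0.108 without the 5 arrays (adjusted p = 0.305).

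**Figure D2:**
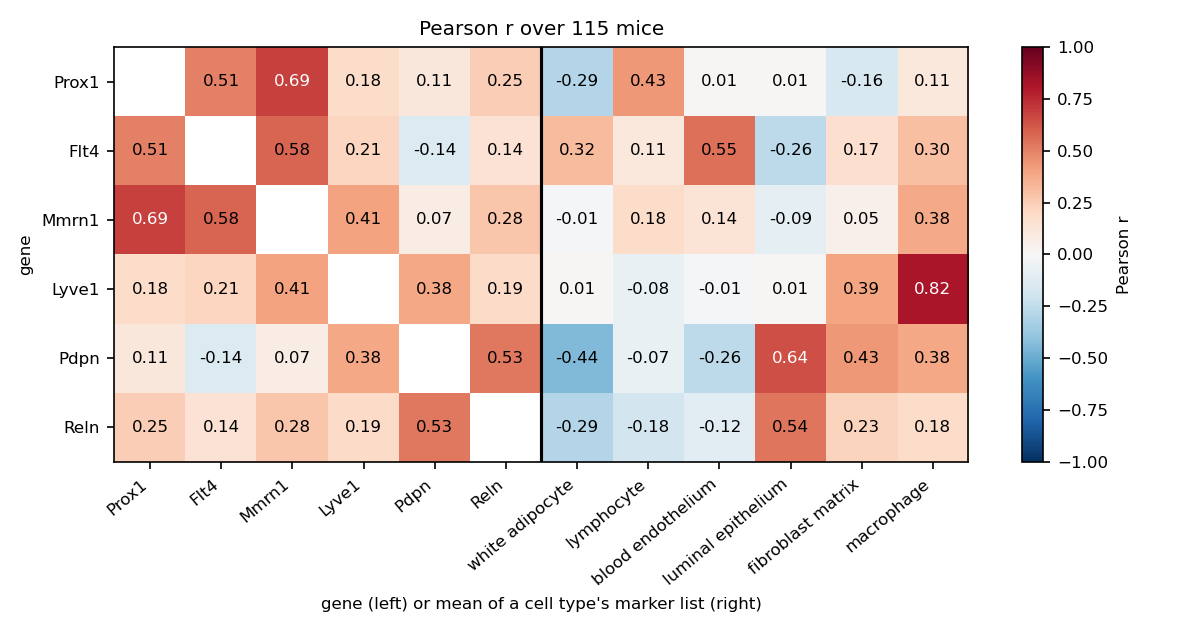
Pearson r over 115 mice between each gene (rows) and the other genes (left 6 columns) or the mean of a cell type's marker genes (right 6 columns). Prox1, Flt4 and Mmrn1 have r of 0.51 to 0.69 with each other, Lyve1 has 0.82 with the macrophage mean, and Pdpn and Reln have 0.64 and 0.54 with the luminal epithelium mean.

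The label of lymphatic endothelium was checked against markers of the other cells of the fat pad, each list summarised as the mean of its measured genes. These 6 list means varied together to a degree (r = 0.686 for the macrophage and fibroblast means and 0.63 for the adipocyte and blood endothelium means), so they were also fitted jointly. With plate, cluster and all 6 means in 1 model, 15 of 36 slopes of the 6 genes passed. The share of all probe sets that passed ran from 4.87% for the fibroblast and matrix mean to 20.7% for the lymphocyte mean. The means accounted for 76.0% of the variance of Lyve1 and 69.6% of that of Pdpn. For Flt4 it was 45.2%, for Reln 37.3%, for Prox1 34.5% and for Mmrn1 32%.

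Lyve1 moved with macrophage genes. Its slope was 1.44 per log2 unit of the macrophage mean (SE 0.095, limma adjusted p = 4.93e-26), with r = 0.82 and rho = 0.789 (permutation p = 1e-05 each, adjusted over 36 relations 4.5e-05 and 6e-05). Without the 2 farthest mice r was 0.772, and it was 0.776 on plate 2 and 0.832 on plate 1. All 13 measured macrophage genes rose with Lyve1, where 5.52% of all probe sets rose and 2.2% fell. F13a1, the A subunit of coagulation factor XIII, rose by 0.62 per unit of Lyve1 (SE 0.046), the complement subunit C1qb by 0.52 (SE 0.040), and Csf1r, the receptor for the macrophage growth factor, by 0.33 (SE 0.041). The genes most like Lyve1 were Itgam (r = 0.807), C1qc (0.791), F13a1 (0.787), Ms4a6d (0.773) and C1qb (0.772), of which Itgam encodes the myeloid integrin subunit CD11b. Pdpn and Mmrn1 rose with Lyve1 (limma adjusted p = 0.00124 and 3.76e-04), but did not pass with the macrophage mean in the model, where the slope of Pdpn was 0.12 (SE 0.084, adjusted p = 0.5) and that of Mmrn1 0.24 (SE 0.13, adjusted p = 0.296).

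**Figure D3:**
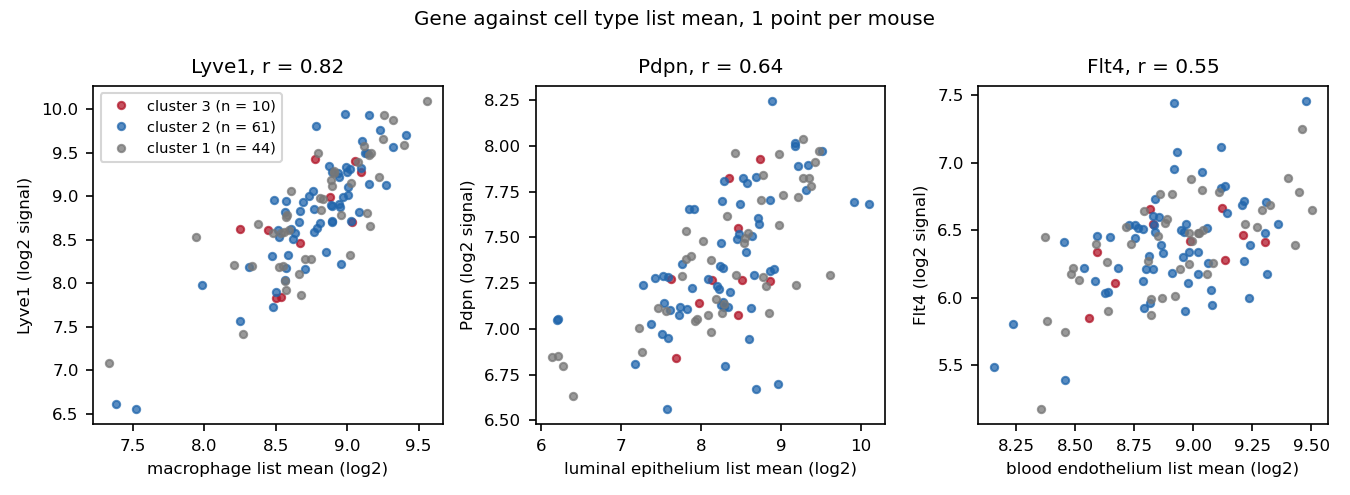
Log2 signal of Lyve1, Pdpn and Flt4 against the mean log2 signal of macrophage, luminal epithelium and blood endothelium markers; each point is a mouse, coloured by lymph cluster. Pearson r over 115 mice is 0.82, 0.64 and 0.55.

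Over the 6 genes, the macrophage mean passed for 4 (Lyve1, Mmrn1, Pdpn and Flt4), where 19.4% of all probe sets passed. The slope of Mmrn1 was 0.57 (SE 0.13, limma adjusted p = 4.70e-04) and that of Pdpn 0.37 (SE 0.084, adjusted p = 5.04e-04). That of Flt4 was 0.30 (SE 0.088, adjusted p = 0.00927), and 0.21 without the 5 arrays (adjusted p = 0.209). In the joint model 5 genes rose with the macrophage mean, with Reln at an adjusted p of 0.137, where 7% of probe sets passed.

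Pdpn and Reln moved with epithelium. Pdpn rose by 0.30 per unit of the luminal epithelium mean (SE 0.034, limma adjusted p = 6.02e-13; r = 0.644, rho = 0.659, permutation p = 1e-05 each, adjusted 4.5e-05 and 6e-05), and Reln by 0.39 (SE 0.058, limma adjusted p = 1.79e-08; r = 0.539, rho = 0.508, same permutation p). Without the 2 farthest mice these r were 0.64 and 0.515. On plate 2 they were 0.621 and 0.386, and on plate 1 0.653 and 0.569. All 12 measured luminal genes rose with Pdpn and all 12 with Reln, where 12.5% and 11.3% of probe sets rose and 9.91% and 10.7% fell. The luminal keratin Krt8 rose by 1.62 per unit of Pdpn (SE 0.20) and by 0.82 per unit of Reln (SE 0.14). Over the 6 genes, the luminal mean passed for 3, where 27.7% of all probe sets passed, the third being Flt4, which fell by 0.12 (SE 0.043, limma adjusted p = 0.0224). Basal epithelium genes also rose, 6 of 7 with Pdpn and 5 of 7 with Reln, among them the basal keratin Krt5 by 1.40 (SE 0.23) and 0.78 (SE 0.15). The relation was not limited to epithelial lists. Of 6 smooth muscle genes, 4 rose and 1 fell with Pdpn, and 4 rose and 0 fell with Reln. Acta2 rose by 0.59 (SE 0.085) with Pdpn and 0.40 (SE 0.053) with Reln, while Rgs5 fell with Pdpn by 0.36 (SE 0.086).

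White adipocyte genes went the other way with Pdpn. All 17 measured ones fell as Pdpn rose, such as the fatty acid carrier Fabp4 by 0.19 per unit (SE 0.041) and the fatty acid receptor Cd36 by 0.24 (SE 0.051). With Reln, 10 of 17 fell. Over the 6 genes, the adipocyte mean passed for 4, falling with Pdpn (slope -0.58, SE 0.11), Reln (-0.59, SE 0.18) and Prox1 (-0.40, SE 0.13) and rising with Flt4 (0.42, SE 0.12), where 41.2% of all probe sets passed. The slope of Flt4 was 0.30 with an adjusted p of 0.0515 without the 5 arrays. The genes most like Pdpn were Epb41l3 (r = 0.802), a membrane skeleton protein, Igsf3 (0.759), Dpysl3 (0.738), and the secreted proteins Crispld1 (0.732) and Crispld2 (0.722). Those most like Reln were Capn6 (0.77), Sbspon (0.762), the kinase Hunk (0.747), Ccnjl (0.736) and Crispld2 (0.733), so Crispld2 stood among the first 5 for both.

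With all 6 means in the model, the link between Pdpn and Reln was no longer past the test. The slope of Reln on Pdpn was 0.83 (SE 0.13, limma adjusted p = 9.03e-08) before and 0.31 (SE 0.22, adjusted p = 0.529) after. In that setting the slope of Reln on Flt4 was 0.64 (SE 0.15, adjusted p = 0.00198), against 0.22 (adjusted p = 0.256) without the means. On Mmrn1 it was 0.35 (SE 0.088, adjusted p = 0.0339), against 0.28 (adjusted p = 0.082). Turned round, Mmrn1 already passed with Reln without the means (0.28, SE 0.089, adjusted p = 0.0169). Pdpn and Reln both still rose with the luminal mean in the joint model, by 0.19 (SE 0.035) and 0.31 (SE 0.079), where 9.63% of probe sets passed. Pdpn also fell with the adipocyte mean in that model (-0.49, SE 0.12, limma adjusted p = 0.00214), where 13% passed. That slope did not pass on plate 1 alone (-0.45, adjusted p = 0.0669) or on normal scores of ranks (adjusted p = 0.0595).

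Flt4 moved with blood endothelium. Its slope on the blood endothelium mean was 0.73 (SE 0.10, limma adjusted p = 8.82e-09), with r = 0.551 and rho = 0.482 (permutation p = 1e-05 each, adjusted 4.5e-05 and 6e-05), 0.503 without the 2 farthest mice, and 0.523 and 0.558 on plates 2 and 1. All 12 measured blood endothelium genes rose with Flt4, where 13.9% of probe sets rose and 10% fell. The junction cadherin Cdh5 rose by 0.53 per unit of Flt4 (SE 0.082), the phosphatase Ptprb by 0.53 (SE 0.092) and the adhesion molecule Pecam1 by 0.33 (SE 0.062). The genes most like Flt4 were Thsd7a (r = 0.643), Upp1 (0.613), Fgd5 (0.603), Tifab (0.595) and F8 (0.594), of which Fgd5 is an endothelial exchange factor for Cdc42 and F8 is coagulation factor VIII, made by endothelium.

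Prox1 and Mmrn1, taken singly, did not pass with it. Their r with the blood endothelium mean was 0.00808 and 0.139 (rho -0.0274 and 0.114, permutation p = 0.931 and 0.136, adjusted 0.931 and 0.214), and 1 of 12 blood endothelium genes rose with each. Fitted jointly with the other means, however, all 3 rose with it, Prox1 by 0.55 (SE 0.15, limma adjusted p = 0.0113), Flt4 by 0.87 (SE 0.13, adjusted p = 2.79e-07) and Mmrn1 by 0.74 (SE 0.22, adjusted p = 0.0213), where 8.51% of probe sets passed. Taken singly, the blood endothelium mean passed for 2 of the 6 genes, rising with Flt4 and falling with Pdpn (-0.34, SE 0.12), where 26.1% passed.

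Prox1 moved with lymphocyte and lymph node genes. Its slope on the joint mean of B cell and T cell markers was 0.30 (SE 0.062, limma adjusted p = 4.15e-05), with r = 0.432 and rho = 0.447 (permutation p = 1e-05 each, adjusted 4.5e-05 and 6e-05). Without the 2 farthest mice r was 0.47. It was 0.18 on plate 2 and 0.478 on plate 1, and 0.698, 0.501 and 0.138 in clusters 3, 2 and 1. Prox1 was the 1 gene of the 6 that passed with this mean, where 34.8% of probe sets passed. In the joint model its slope was 0.21 (SE 0.070, adjusted p = 0.0203; 20.7% of probe sets passed), and with the basal epithelium mean added it was 0.21 (SE 0.078, adjusted p = 0.0528).

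Of the measured B cell and T cell genes, 12 of 13 and 12 of 13 rose with Prox1, where 6.72% of probe sets rose and 2.1% fell. The B cell receptor subunit Cd79b rose by 0.70 per unit of Prox1 (SE 0.16) and the T cell receptor subunit Cd3e by 0.53 (SE 0.16). Of 9 lymph node stroma genes, 7 rose with Prox1. Those with the highest mean signal were Cxcl13, Glycam1 and Ccl19. Cxcl13 rose by 0.65 (SE 0.19). Glycam1, a mucin of high endothelial venules that is also secreted in milk, rose by 0.98 (SE 0.23). Ccl19 did not pass (0.42, SE 0.17, limma adjusted p = 0.0984). Chst4 and Il7 were named after their values were seen. The sulfotransferase Chst4 rose by 0.44 (SE 0.072). The T cell survival factor Il7, which lymphatic endothelium also makes, rose by 0.35 (SE 0.075). Il7 and Chst4 were the 2 of the 9 stroma genes that also rose with Flt4 and with Mmrn1.

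The genes most like Prox1 were Stab2 (r = 0.707), a scavenger receptor for hyaluronan of sinus-lining endothelium, Mmrn1 (0.685), Abcg3 (0.621), the scavenger receptor Marco (0.611) and F8 (0.6). Those most like Mmrn1 were Prox1, the membrane glycoprotein Gpm6a (0.668), F8 (0.638), Cd209b (0.589), a C-type lectin of lymph node macrophages, and Stab2 (0.584). Mmrn1 had few relations, with 1.37% of probe sets rising and 0.411% falling with it. Stab2 and F8 were thus among the first 5 for both Prox1 and Mmrn1.

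The fibroblast and matrix mean passed for 2 of the 6 genes taken singly, where 25.2% of probe sets passed. Lyve1 rose with it by 0.87 (SE 0.19) and Pdpn by 0.52 (SE 0.10). In the joint model the slope of Lyve1 was -0.82 (SE 0.18, limma adjusted p = 0.00123), that of Mmrn1 -0.97 (SE 0.26, adjusted p = 0.0125) and that of Prox1 -0.61 (SE 0.18, adjusted p = 0.0236), where 4.87% of probe sets passed. The slope of Lyve1 was thus positive with this mean alone and negative with all 6 means in the model. On normal scores of ranks none of these joint slopes passed, with adjusted p of 0.065 for Lyve1, 0.132 for Mmrn1 and 0.142 for Prox1. On plate 1 alone the joint slope of Prox1 was -0.68 (adjusted p = 0.0535).

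The growth factor pathway was next set beside the receptor. Of 7 ligand and activation genes, 2 rose with Flt4 and none fell, where 13.9% of probe sets rose and 10% fell. Vegfc rose by 0.31 (SE 0.070, limma adjusted p = 8.63e-04) and Pgf, a ligand of the blood vessel receptor Flt1, by 0.22 (SE 0.071, adjusted p = 0.0162). The other Flt4 ligand, Vegfd, fell with Prox1 by 0.43 (SE 0.098, adjusted p = 0.00203). Adamts3, the protease that activates Vegfc, rose with Pdpn by 0.81 (SE 0.094) and with Reln by 0.59 (SE 0.053), as did Ccbe1, its cofactor, by 0.35 (SE 0.11) and 0.21 (SE 0.068). With Pdpn, Vegfa fell by 0.33 (SE 0.075, adjusted p = 4.15e-04) and Vegfb by 0.37 (SE 0.087, adjusted p = 5.01e-04). None of the 7 passed with Mmrn1.

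Among receptors and coreceptors, 5 of 6 rose with Flt4, namely Kdr (VEGFR2, 0.54, SE 0.092), Nrp2 (a coreceptor of Vegfc, 0.39, SE 0.065), Flt1 (0.38, SE 0.079), Itga9 (0.34, SE 0.063) and Nrp1 (0.24, SE 0.066). Of 8 genes of the Tie and adrenomedullin pathways, which shape lymphatic valves and growth, 6 rose with Flt4 and none fell. Of all probe sets, 13.9% rose and 10% fell with Flt4. Tie1 rose by 0.36 (SE 0.065), the calcitonin receptor-like partner Ramp2 by 0.38 (SE 0.079) and the ligand Adm by 0.37 (SE 0.10). Calcrl, the receptor that Ramp2 pairs with, rose instead with Prox1 (0.21, SE 0.056) and Pdpn (0.27, SE 0.059). With the blood endothelium mean, 4 of the 6 receptors and coreceptors and 6 of the 8 Tie and adrenomedullin genes rose, where 26.1% of probe sets passed.

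Of 9 measured genes of lymphatic development, transcription factors and the valve ligand Efnb2, 8 rose with Flt4, where 13.9% of probe sets rose. This was not particular to lymphatic genes, since all 12 blood endothelium genes rose with Flt4 too. With the blood endothelium mean, 5 of the 9 rose. The median slope of the 9 on Flt4 was 0.25, against -0.01 over all probe sets. Sox18 rose by 0.46 (SE 0.085), Gata2, which is needed for lymphatic valves, by 0.26 (SE 0.051), and Nr2f2, the partner of Sox18 in switching on Prox1, by 0.21 (SE 0.046). With Prox1 itself, where 6.72% of probe sets rose, 4 of 9 rose, the valve factors Foxc2 (0.21, SE 0.044) and Nfatc1 (0.29, SE 0.067), Tbx1 (0.35, SE 0.072) and Hhex (0.34, SE 0.090). Foxc2 and Tbx1 rose with Mmrn1 too, by 0.15 (SE 0.030) and 0.23 (SE 0.050). Sox18 did not pass with Prox1.

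Of 12 other lymphatic markers, 7 rose with Flt4, 5 with Lyve1, 4 with Pdpn, 3 with Mmrn1, 2 with Prox1 and 2 with Reln, while 3 fell with Pdpn, 2 with Reln and none with the other 4 genes. Over all probe sets, 13.9% rose with Flt4, 5.52% with Lyve1, 12.5% with Pdpn, 1.37% with Mmrn1, 6.72% with Prox1 and 11.3% with Reln, and 9.91% fell with Pdpn and 10.7% with Reln. Stab2 rose with Prox1 by 0.77 per unit (SE 0.073, limma adjusted p = 3.96e-14), with Flt4 by 0.54 (SE 0.097) and with Mmrn1 by 0.44 (SE 0.058). The decoy chemokine receptor Ackr2 rose with Lyve1 by 0.35 (SE 0.040), as did Stab1, a scavenger receptor of macrophages and sinus endothelium, by 0.26 (SE 0.038). Stab1 did not pass with Prox1, nor Stab2 with Lyve1.

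Genes that work with Lyve1, Pdpn, Reln and Mmrn1 were counted in the same way, to be read beside the shares of all probe sets just given. Of 7 hyaluronan genes, 0 passed with Lyve1, the hyaluronan receptor, while 4 rose with Pdpn, including the synthase Has2 by 1.06 (SE 0.13) and the hyaluronidase Cemip2 by 0.63 (SE 0.091). Of 5 podoplanin partners, the tetraspanin Cd9 (0.72, SE 0.088) and the cytoskeletal linker Ezr (0.52, SE 0.11) rose with Pdpn, and its platelet receptor Clec1b fell (-0.17, SE 0.052). Of 7 reelin pathway genes, 1 rose with Reln, close to the 11.3% of all probe sets, namely the kinase Src by 0.34 (SE 0.044), and the reelin receptors Vldlr and Lrp8 did not pass. Of 5 genes listed with Mmrn1, the coagulation factor V gene F5, whose protein multimerin 1 binds, rose with it by 0.31 (SE 0.082), while its relative Emilin2 rose with Lyve1 by 0.40 (SE 0.042) and Mmrn2, of blood endothelium, rose with Flt4 by 0.40 (SE 0.071).

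Of 66 measured pathway genes, Itga9 and Sema3a, a guidance ligand, rose with all 6 genes, the Tie2 ligand Angpt2 with 5, and 13 with none. Over the other probe sets, 0.0248% rose with all 6, and all 6 fits share the same mice. Itga9 encodes the integrin subunit alpha 9, needed for lymphatic valves, and its slope ranged from 0.19 on Reln (SE 0.042) to 0.38 on Pdpn (SE 0.062). It also had the highest mean r with the 6 genes of all named genes, 0.501, with single values from 0.396 to 0.612, followed by Sema3d (0.417), Cd209b (0.414), Gpm6b (0.406) and Mmrn1 itself (0.406). Without the 2 mice low in all 6 genes, Itga9 still rose with 6, whereas Sema3a and Angpt2 rose with 3 each.

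Flt4 and Pdpn varied with Hipk2, in opposite directions. Hipk2 ran from 9.83 through 10.76 to 11.49. The slope of Flt4 on Hipk2 was 0.44 (SE 0.091, limma adjusted p = 3.32e-05) and that of Pdpn -0.45 (SE 0.089, adjusted p = 1.76e-05). Of all probe sets, 18.5% rose and 17.2% fell with Hipk2, so 1 rising and 1 falling gene of 6 is close to that background. Slopes were -0.33 for Reln (SE 0.15, adjusted p = 0.0818), -0.20 for Prox1 (SE 0.10, adjusted p = 0.141), -0.11 for Lyve1 (SE 0.18, adjusted p = 0.704) and 0.10 for Mmrn1 (SE 0.15, adjusted p = 0.666). On plate 1 alone, Reln passed at -0.57 (SE 0.18, adjusted p = 0.00738), and without the 5 arrays at -0.40 (SE 0.16, adjusted p = 0.0438).

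All 17 white adipocyte genes rose with Hipk2, and all 12 luminal genes fell. With the adipocyte mean in the model, the slope of Flt4 was 0.55 (SE 0.18, adjusted p = 0.0329) and that of Pdpn -0.18 (SE 0.17, adjusted p = 0.613). Among pathway genes, 4 of 7 growth factor genes rose with Hipk2, led by Vegfd at 0.65 (SE 0.10), Vegfb at 0.59 (SE 0.080) and Vegfa at 0.52 (SE 0.069), while Adamts3 fell by 0.42 (SE 0.12). Of the receptors, 4 of 6 rose, including Kdr by 0.76 (SE 0.085). No difference of slope on Hipk2 between cluster 2 and cluster 1 passed for the 6 genes (limma interaction adjusted p from 0.414 to 0.993), where 4.62% of probe sets differed. The interval of that difference for Flt4 was -0.71 to 0.07.

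**Figure D4:**
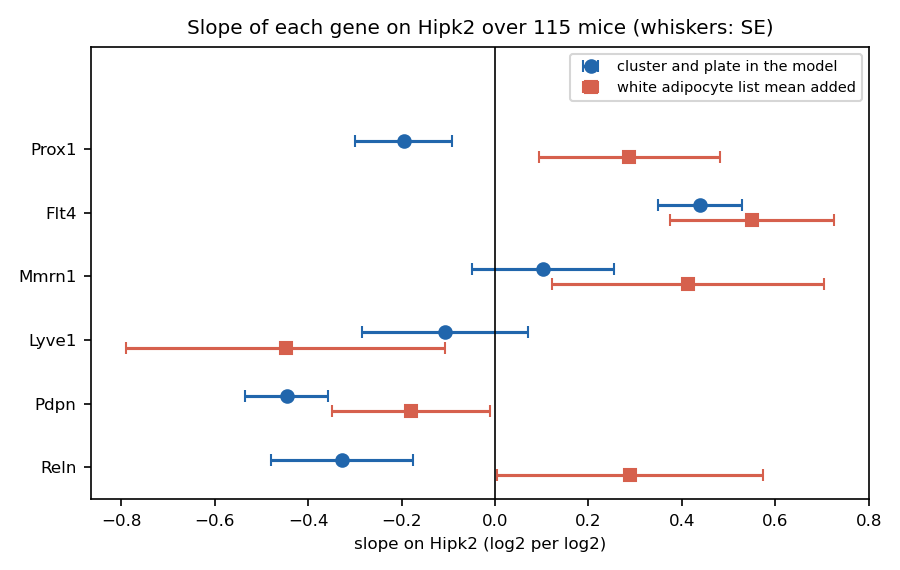
Slope of each gene on Hipk2 over 115 mice (points) with standard errors, with cluster and plate in the model (blue circles) and with the white adipocyte mean added (red squares). Flt4 stays at 0.44 and 0.55, and Pdpn is at -0.45 and -0.18.

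The tie between Prox1 and Flt4 was stronger in cluster 2 than in cluster 1. In cluster 2 their r was 0.757 (rho 0.726, n = 61), 0.713 without the 2 farthest mice. In cluster 1 it was 0.0947 (rho 0.0586, n = 44) and -0.0269 without 2 mice. The slope of Prox1 on Flt4 was 0.86 in cluster 2 (SE 0.095) and 0.08 in cluster 1 (SE 0.13), and the limma interaction over all probe sets gave a difference of 0.79 (SE 0.16, adjusted p = 0.0245), where 0.0177% of probe sets differed in their slope on Flt4. On plate 1 alone the difference was 0.83 (adjusted p = 0.0236), without the 5 arrays 0.79 (adjusted p = 0.0394), and without the 2 mice low in all 6 genes 0.77 (adjusted p = 0.0891). Turned round, the slope of Flt4 on Prox1 differed by 0.55 (SE 0.17, adjusted p = 0.141), so the call depends on which gene is the predictor.

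Prox1 and Mmrn1 had r of 0.82 in cluster 2 and 0.47 in cluster 1, and Flt4 and Mmrn1 0.76 and 0.30. The differences in slope for these pairs did not pass, with adjusted p from 0.421 to 0.728. Of 30 slopes compared between clusters 2 and 1, 1 passed and 6 had an unadjusted p under 0.05. The share of probe sets that differed was 0.0745% for slopes on Prox1, 0.0213% on Mmrn1, 0.00355% on Lyve1, 0% on Pdpn and 0% on Reln. In cluster 3, with 10 mice, r for Prox1 and Flt4 was -0.0124, and no slope difference was tested there.

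**Figure D5:**
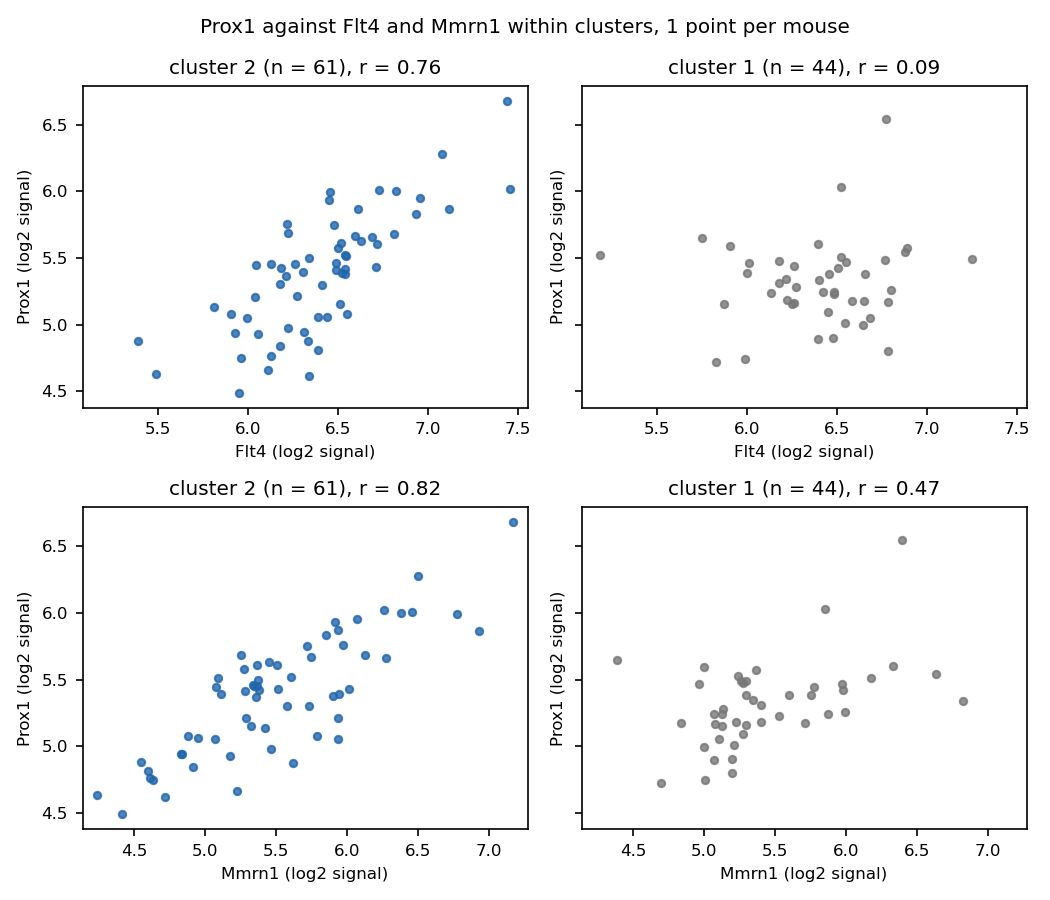
Log2 signal of Prox1 against Flt4 (upper panels) and Mmrn1 (lower panels) in cluster 2 (left, n = 61) and cluster 1 (right, n = 44); each point is a mouse. The r of Prox1 and Flt4 is 0.76 in cluster 2 and 0.09 in cluster 1.

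Each backcross mouse carries, at any autosomal locus, either 2 FVB/N alleles or 1 of each parent strain, so a gene under strong local control could show 2 levels. A mixture of 2 normal distributions was preferred over 1 by the Bayesian information criterion for Reln (difference 3.38) and not for the others (-9.51 to -0.32). The largest gap in the Reln values was 0.2 log2 units, with 112 of the 115 mice below it, so it did not part the mice into groups of like size. Whether Reln follows genotype was not tested. Among up to 50 measured genes on each side of every member on its chromosome, the share that passed with the member was 14.6% of 89 for Prox1, against 9.98% of all genes, and 4% of 100 for Mmrn1, against 1.98%. For Lyve1 (7% against 8.68%), Flt4 (23% against 26.1%), Pdpn (25% against 24.2%) and Reln (18% against 23.3%) it was at or below the genome share or within 1 percentage point of it.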

How the data were processed

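Per the submitters' processing notes, the authors normalised the arrays with RMA in the oligo package. The deposited values are log2 signals per probe set. Their means per lymph cluster were more alike than those of random groups, and whether cluster was adjusted for beforehand was not tested. Biotinylated cRNA was made from total RNA extracted with Trizol and RNeasy columns, per the labels' protocols, and no software version was stated by the sources at hand. Probe sets were named from the platform annotation and RefSeq symbols: of 28204, 21141 carried 1 symbol, 1881 several and 5182 none. Array medians lay between 6.16 and 6.45, and pairs of arrays correlated from 0.928 to 0.992. The number of arrays limits precision. Whether Spret/Ei alleles bind the probes as FVB/N alleles do was not tested.

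Linear models were fitted with limma 3.58.1 in R 4.3.3, with cluster and plate as terms, and p-values adjusted by Benjamini-Hochberg over all probe sets. A gene passed at an adjusted p under 0.05. Slopes are log2 per log2 unit, intervals are 95%, and all tests are two-sided. Correlations used 100000 permutations. Mixtures were fitted with mclust 6.1.1. The fits were tested on simulated data. The members and gene lists were chosen with earlier results of these data known. Named genes were the 6 members, Hipk2, the 5 genes most like each member and the 5 with the highest mean r (predicted genes and antigen receptor segments left out), the pathway lists, and up to 3 genes per cell type by mean signal. Il7 and Chst4 lie outside this rule and were named after their values were seen. Each mouse is 1 array, and mouse numbers follow file order within a cluster.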

Additional observations from a re-analysis of the deposited data

Results flagged for a closer look

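The slope of Prox1 on Flt4 differed between lymph cluster 2 and lymph cluster 1 by 0.79, with 0.86 in cluster 2 and 0.08 in cluster 1. It is listed because the difference itself passed the limma interaction test (adjusted p = 0.0245). Without the 2 mice low in all 6 genes it was 0.77 with an adjusted p of 0.0891. In cluster 3, the 1 group small enough to test for single distant mice, none of the 6 genes had one.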

How the results depend on the processing

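No paired analysis was possible because replicate numbers follow file order and pair no mice. No member has a further single-symbol probe set, so that alternative gave no value. Counts of the 6 genes passing with clusters and plate stayed at 0 in every setting run. For clusters this is no check, since all settings start from values whose cluster means were alike over the whole array. For Hipk2, 1 gene passed within cluster 2 and 1 with the adipocyte mean added, against 2. With Lyve1, 0 other genes passed with the macrophage mean, within cluster 1 or with all 6 means, and 1 within cluster 2, against 2. Within cluster 1 alone (44 mice), 0 passed with Prox1, Flt4 and Mmrn1 and 1 with Pdpn and Reln, against 2, 2, 3, 2 and 3. With all 6 means added 0 passed with Pdpn, and with Reln 1 passed on plate 1 or with the macrophage mean. The lymphocyte mean passed for 2 genes after quantile normalization, against 1, and 9 of the joint slopes passed on ranks, against 15. The other 125 counts stayed within 1.5 times. No value changed sign while passing. The causes were not tested. Leaving out the 5 arrays or the 2 mice, chosen after seeing the data, gave 8 and 9 correlated pairs, against 9. Without the 2 mice Lyve1 and Flt4 no longer passed (r = 0.122, permutation, adjusted p = 0.272), while Flt4 and Pdpn did (-0.216, adjusted p = 0.0412). With 10 mice in cluster 3, intervals of its differences reach about 0.5 log2 units for Lyve1.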
